A study of Homo sapiens with 9 samples.

Results

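The HOX cluster genes encode homeodomain transcription factors and lie in 4 clusters, HOXA, HOXB, HOXC and HOXD. They were taken here as every probe set (a group of short array probes read as one measurement) assigned to 1 gene whose symbol is HOXA, HOXB, HOXC or HOXD followed by a number from 1 to 13 and nothing else. This gave 44 probe sets for 28 genes. In all there were 54613 probe sets that were not array controls, and 41091 of them were assigned to 1 gene, for 19775 genes. HOXA had 1 probe set for 1 gene (HOXA2), HOXB 19 for 10 genes, HOXC 9 for 9 genes and HOXD 15 for 8 genes. The other HOXA genes were not analysed here. No probe set was dropped for a low value.

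The study measured total RNA of HSF-6, an established human embryonic stem cell line, on 9 one-colour expression arrays in 3 groups of 3. One group was HSF-6 (8) grown without added agents, and another was HSF-6 (8) grown with butyrate and DZNep together. The third was HSF-6 (S9) grown with the same 2 agents. All cells had gone through 11 passages and 6 days of growth, and the labels do not say what sets (8) and S9 apart. Butyrate inhibits histone deacetylases, and DZNep (3-deazaneplanocin A) inhibits S-adenosylhomocysteine hydrolase and thereby the methyltransferases that depend on S-adenosylmethionine, EZH2 of Polycomb among them. No HSF-6 (S9) array without the agents and no array with 1 agent alone was analysed here, so the HSF-6 (S9) group differs from the untreated group in both subline and treatment, which cannot be told apart. The arrays of a group carry the same number with prime marks, called arrays 1, 2 and 3 below, and nothing says that they came from separate cultures. If the arrays are technical repeats, the p-values cover technical spread alone.

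Array 3 of each group stood apart. Its signal for the 3′ control probe set of 18S ribosomal RNA was 963 in untreated HSF-6 (8), 850 in treated HSF-6 (8) and 1517 in treated HSF-6 (S9), against 385 to 542 on the other 6 arrays. Leaving out array 3 of a group, or of every group, turned some differences printed for HOXA2, HOXB2, HOXB5, HOXC4 and HOXC6 or moved them by over 1.5 times. Values without it are given for many of these, beside them or in the last section, but not for every such case. The list is not complete: array 3 of some groups also lay apart for HOXC8, HOXC9 and HOXD4 205522_at. Their differences without array 3 are not given. The part of ribosomal RNA in the HOX values was not tested.

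HOX genes assign position along the head-to-tail axis of the embryo. Genes at the low-numbered end of a cluster act further forward and are usually switched on earlier, in response to retinoic acid among other signals, and genes at the high-numbered end act further back and later. In embryonic stem cells the clusters are textbook targets of Polycomb: Polycomb repressive complex 2, with EZH2 as its catalytic subunit, methylates lysine 27 of histone H3 over them, and the genes are held at low expression together with other developmental regulators.

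In stem cells Polycomb mostly occupies DNA rich in CpG dinucleotides. For 1 gene of each cluster, the 250 bases upstream of the RefSeq transcription start (build GRCh38.p14) are given here 5′ to 3′ on the strand of the gene, with every CpG in capitals, to show how this base composition varies between members. HOXA2 lies at chr7:27102684-27102933 on the minus strand and HOXB1 at chr17:48531012-48531261 on the minus strand. HOXC4 lies at chr12:54016638-54016887 on the plus strand, in the same window as HOXC5, and HOXD12 at chr2:176099545-176099794 on the plus strand.
HOXA2: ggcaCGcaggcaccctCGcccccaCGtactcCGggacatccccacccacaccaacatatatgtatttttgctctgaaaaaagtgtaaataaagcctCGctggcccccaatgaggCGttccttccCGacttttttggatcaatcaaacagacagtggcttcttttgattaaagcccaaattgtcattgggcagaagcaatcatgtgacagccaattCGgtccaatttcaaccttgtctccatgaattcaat
HOXB1: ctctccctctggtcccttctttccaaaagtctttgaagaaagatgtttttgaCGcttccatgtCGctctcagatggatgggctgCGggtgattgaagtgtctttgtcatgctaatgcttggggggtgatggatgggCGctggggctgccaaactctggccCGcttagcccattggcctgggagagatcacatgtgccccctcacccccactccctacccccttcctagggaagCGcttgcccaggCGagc
HOXC4: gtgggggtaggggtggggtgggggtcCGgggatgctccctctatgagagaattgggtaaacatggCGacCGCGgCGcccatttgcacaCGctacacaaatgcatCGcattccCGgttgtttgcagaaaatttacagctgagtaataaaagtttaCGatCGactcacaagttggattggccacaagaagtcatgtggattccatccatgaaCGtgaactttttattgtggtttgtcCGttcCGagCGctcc
HOXD12: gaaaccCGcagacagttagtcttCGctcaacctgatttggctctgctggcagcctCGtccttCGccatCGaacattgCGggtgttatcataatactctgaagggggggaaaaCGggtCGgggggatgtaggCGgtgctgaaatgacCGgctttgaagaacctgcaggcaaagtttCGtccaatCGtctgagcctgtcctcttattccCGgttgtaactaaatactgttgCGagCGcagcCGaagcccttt
These windows hold 8, 7, 14 and 16 CpG respectively. Windows were found for 11 of the 28 genes, holding 10 distinct sequences. Most were of HOXD genes, and HOXA2 and HOXB1 were the only ones of their clusters. The HOX shares of windows given below therefore rest mainly on HOXD, and they count the window of HOXC4 and HOXC5 for each gene. A ratio of observed to expected CpG of at least 0.6 is a mark used, among others, to define a CpG island. The ratio reached it in 9 of 11 HOX windows (81.8%) and in 16679 of all 35116 promoter windows of the same length (47.5%). Its median was 0.888 over the HOX windows, from 0.287 in HOXD4 to 0.976 in HOXD11, and 0.558 over all windows. HOXB1 (0.343) and HOXD4 were the HOX windows under that mark and under the median of all windows, and HOXA2 (0.609) was close to it.

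**Figure D1:**
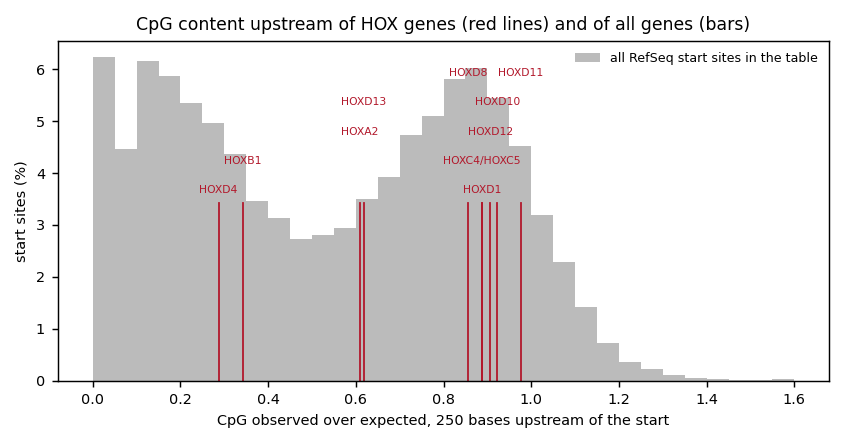
The histogram shows the ratio of observed to expected CpG in the 250 bases upstream of all 35116 RefSeq promoter windows, and the red lines mark the HOX genes. HOXB1 and HOXD4 lie below 0.6 and the other HOX windows lie at 0.609 or above.

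Short motifs were counted on both strands of the same windows. TGATNNAT, the letters of a composite site for PBX and HOX proteins, was in 3 of 11 HOX windows (27.3%), those of HOXA2, HOXB1 and HOXD11, and in 6.47% of all windows. CCAAT was in 9 of 11 (81.8%) against 32.0%, and TATAAA was in 1 of 11 (9.09%) against 10.7%. These are letter matches in a fixed window, not measured binding, and the genes with a window are not all the HOX genes.

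Most HOX probe sets were dim in all 3 groups. The values are MAS5 signals, a linear brightness whose trimmed mean was nearly the same on every deposited array (500.061 to 500.076). Across arrays the median signal of all probe sets lay between 64.8 and 82.9 and the 75th percentile between 406 and 474. Signal was above the array's own median on all 9 arrays for 2 of 44 HOX probe sets (4.55%), against 40.0% of all probe sets. It was above it on no array for 26 of 44 (59.1%), against 37.1% of all. HOXB2 and HOXC6 were the probe sets above the median throughout, and they alone passed the 75th percentile on any array, each on 4 of 9. Detection calls were not used here, so a low signal is not told apart from background.

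HOX probe sets were mostly dim in each group. The number of HOX probe sets above the array median was 9, 8 and 8 on the untreated HSF-6 (8) arrays, 4, 7 and 7 on the treated HSF-6 (8) arrays and 5, 6 and 7 on the treated HSF-6 (S9) arrays. The median HOX signal was 29.6, 23.7 and 27.5 on the untreated arrays, 24.6, 33.0 and 35.2 on the treated HSF-6 (8) arrays and 25.0, 17.8 and 21.4 on the treated HSF-6 (S9) arrays. The counts in the treated groups were all below those in the untreated group, while the median signals of the untreated group overlapped those of both treated groups.

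**Figure D2:**
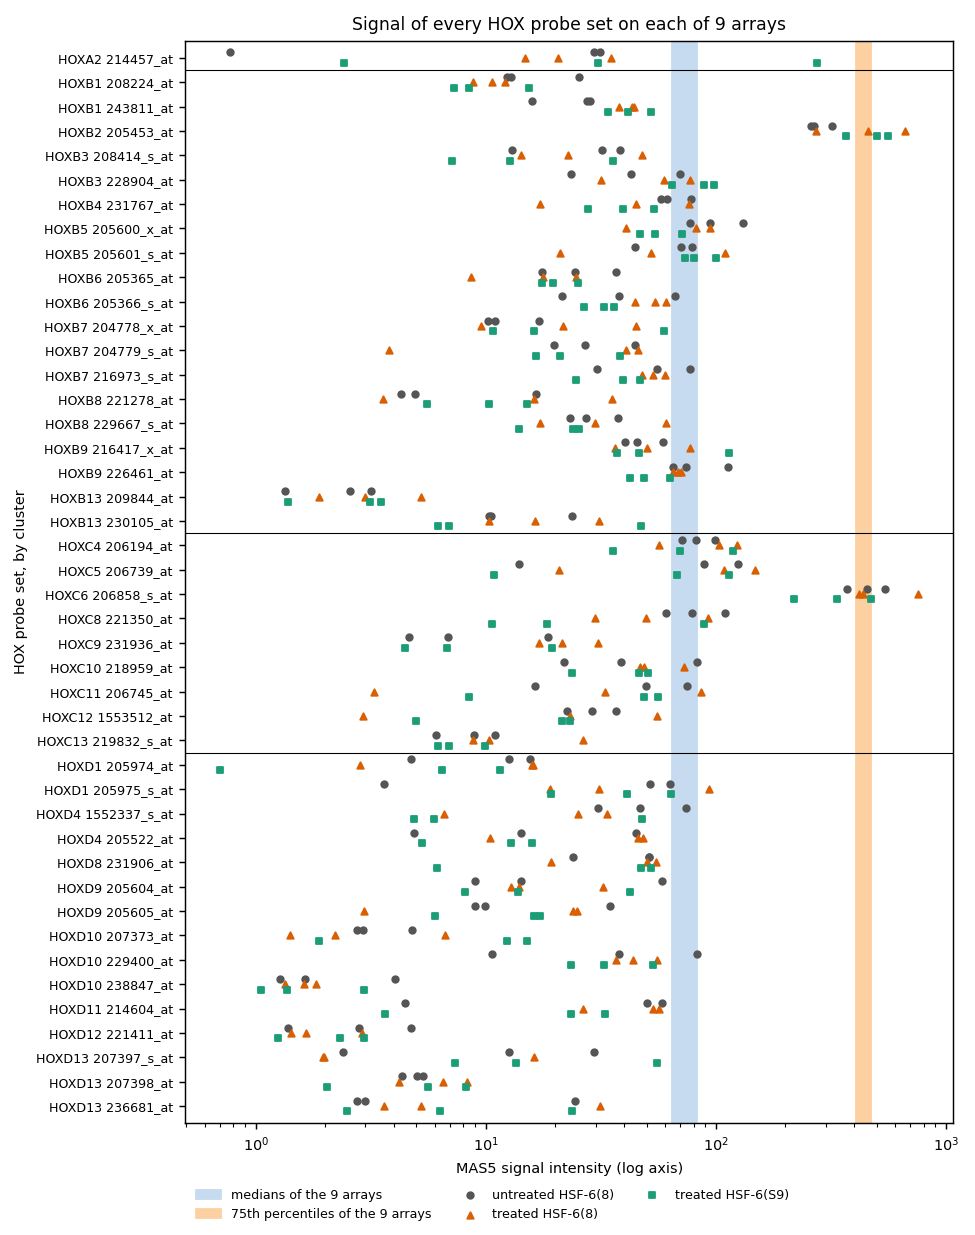
Signal of each of the 44 HOX probe sets on each of the 9 arrays, on a log axis, with bands for the range of array medians (64.8 to 82.9) and of 75th percentiles (406 to 474). HOXB2 and HOXC6 lie above the lower band on all arrays, and most other HOX points lie below it.

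By cluster, the share of probe sets that passed the array median on at least 1 array was 8 of 19 in HOXB, 6 of 9 in HOXC and 3 of 15 in HOXD, and the single HOXA probe set passed it on 1 array. By position along the cluster, it was 7 of 12 for paralog groups 1 to 4 (the forward-acting genes), 6 of 13 for groups 5 to 8 and 5 of 19 for groups 9 to 13. These counts describe probe sets with different probes, whose levels cannot be set against each other, and no test was made of them.

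HOXB2, a hindbrain patterning gene, had the brightest HOXB probe set (205453_at). Its signal was 321, 268 and 259 on the untreated HSF-6 (8) arrays, 459, 666 and 273 on the treated HSF-6 (8) arrays and 369, 503 and 557 on the treated HSF-6 (S9) arrays. Treated array 3 of HSF-6 (8) lay within the untreated range, and all 3 HSF-6 (S9) arrays lay above it. The means were 283 ± 33.8, 466 ± 196 and 477 ± 96.7 (SD, n = 3 each). Differences are given as log2 of signal plus 16, with their standard error, in a limma fit over all arrays and all probe sets; adding 16 shrinks the fold of dim probe sets. HOXB2 differed by 0.61 ± 0.32 between treated and untreated HSF-6 (8) (limma adjusted p = 0.879) and by 0.71 ± 0.32 between treated HSF-6 (S9) and untreated HSF-6 (8) (adjusted p = 0.588). Neither passed the test. The former was 0.94 without array 3 and 0.32 without array 2 of treated HSF-6 (8). The 95% interval of the latter ran from -0.0059 to 1.42, so a rise of 2-fold (a log2 difference of 1) lies within it.

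HOXB5, expressed along the hindbrain and trunk, had 2 probe sets that did not move together. Probe set 205600_x_at read 132, 94.4 and 76.9 in untreated HSF-6 (8), 81.7, 94.0 and 40.9 in treated HSF-6 (8) and 71.0, 54.4 and 47.0 in treated HSF-6 (S9), whose arrays all lay below the untreated ones. Probe set 205601_s_at read 70.8, 44.6 and 79.1, then 21.0, 52.1 and 109, then 100, 80.4 and 73.5 in the same groups, which overlapped. Between treated HSF-6 (S9) and untreated HSF-6 (8) the former differed by -0.66 ± 0.30 (limma adjusted p = 0.599) and the latter by 0.33 ± 0.40 (adjusted p = 0.883). The latter was 0.14 without array 2 of the untreated group and 0.55 without array 3 of every group. Between treated and untreated HSF-6 (8), 205600_x_at differed by -0.44 ± 0.30 (limma adjusted p = 0.967), by -0.15 without array 3 of the treated group and by -0.26 without array 1 of the untreated group. Between the treated sublines 205601_s_at differed by 0.56 ± 0.40 (adjusted p = 1.00), by 0.12 without array 1 and 0.997 without array 3 of HSF-6 (8), and by 1.08 without array 3 of every group. The suffixes _x_at and _s_at mark probe sets whose probes can match other transcripts, and 11 HOX probe sets carry _s_at and 3 carry _x_at.

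HOXC6, a gene of the thoracic region, had the brightest HOXC probe set (206858_s_at). Its signal was 452, 546 and 371 in untreated HSF-6 (8), 437, 418 and 759 in treated HSF-6 (8) and 471, 220 and 337 in treated HSF-6 (S9). All 3 groups overlapped, and array 3 of treated HSF-6 (8) stood highest. The difference between treated and untreated HSF-6 (8) was 0.19 ± 0.33 (limma adjusted p = 1.00) and turned to -0.076 without that array. It was 0.058 without array 3 of the untreated group and -0.21 without array 3 of every group. Treated HSF-6 (S9) differed from treated HSF-6 (8) by -0.64 ± 0.33 (adjusted p = 1.00, 95% interval -1.38 to 0.11). It differed by -0.37 without array 3 of HSF-6 (8), by -0.39 without array 3 of every group and by -0.36 without array 2 of HSF-6 (S9). It differed from untreated HSF-6 (8) by -0.44 ± 0.33 (limma adjusted p = 0.788), by -0.17 without array 2 of HSF-6 (S9) and by -0.69 without its array 1.

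The other leading HOXC probe sets lay above the array median on some arrays and below it on others. HOXC4 (206194_at), which acts in the neck and upper trunk, read 82.1, 99.0 and 71.6 untreated, 56.6, 103 and 124 in treated HSF-6 (8) and 70.1, 119 and 35.8 in treated HSF-6 (S9). HOXC5 (206739_at) read 14.0, 124 and 88.6, then 20.7, 108 and 148, then 67.9, 10.8 and 114. For both, the groups overlapped. HOXC4 differed by 0.097 between treated and untreated HSF-6 (8), and by -0.098 without array 3 of the treated group. It differed by 0.0042 without array 3 of the untreated group and by -0.19 without array 3 of every group. Its difference of -0.24 between treated HSF-6 (S9) and untreated HSF-6 (8) became 0.12 without array 3 of HSF-6 (S9).

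In HOXD the brightest probe sets stayed near or below the array median. HOXD1 (205975_s_at), the forward-acting end of the cluster, read 3.60, 62.9 and 51.5 untreated, 19.0, 93.5 and 31.0 in treated HSF-6 (8) and 41.0, 64.03 and 19.1 in treated HSF-6 (S9). HOXD10 (229400_at), active in lumbar spinal cord and limb, read 38.0, 10.6 and 82.8, then 43.4, 36.7 and 55.5, then 32.6, 53.1 and 23.6. HOXD8 (231906_at) read 51.1, 23.97 and 51.1, then 55.1, 19.1 and 50.03, then 47.3, 52.5 and 6.15. Each of these overlapped between all groups. Some probe sets stayed at a few units on every array: HOXD12 (221411_at), a limb gene, ranged from 1.26 to 4.75 over the 9 arrays, HOXD10 238847_at from 1.06 to 4.05 and HOXB13 209844_at from 1.34 to 5.26.

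HOXA2, which patterns the hindbrain and the second pharyngeal arch, was low on 8 arrays and high on 1. Its probe set (214457_at) read 29.5, 31.5 and 0.77 in untreated HSF-6 (8), 20.6, 14.8 and 35.1 in treated HSF-6 (8) and 30.8, 2.41 and 276 in treated HSF-6 (S9). The value of 276 on array 3 of HSF-6 (S9) was the only one above its array's median. Against untreated HSF-6 (8) the HSF-6 (S9) group differed by 0.93 ± 0.86 (limma adjusted p = 0.840), and by -0.17 ± 0.55 (adjusted p = 0.958) without that array.

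**Figure D3:**
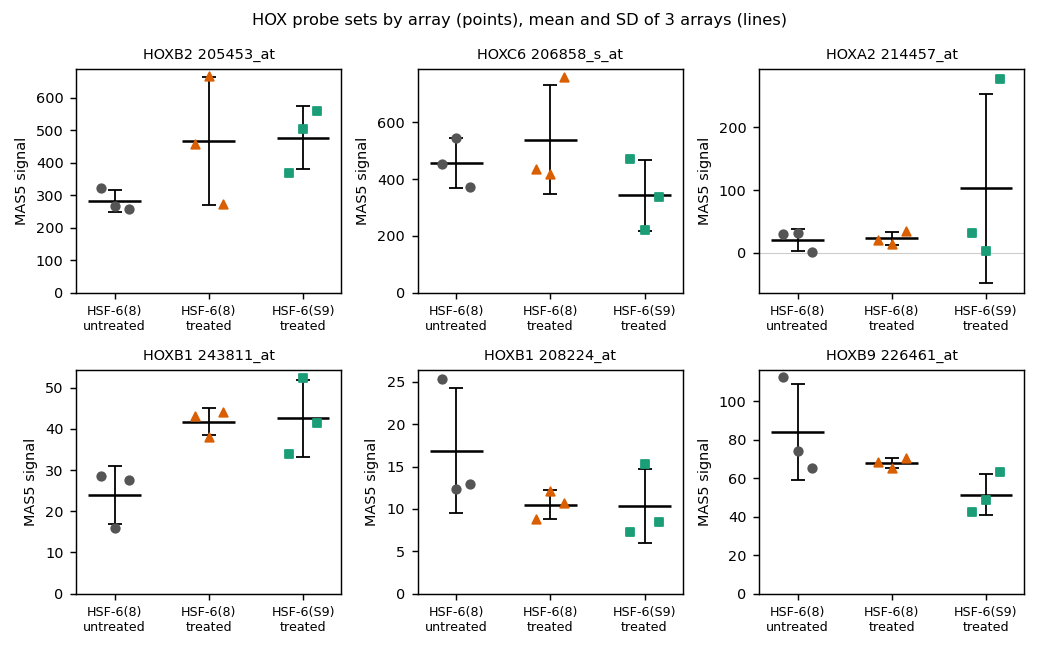
Signal on each array of HOXB2, HOXC6, HOXA2, both HOXB1 probe sets and HOXB9, by group, with mean and SD (n = 3) and a linear axis that differs between panels. The HOXA2 mean of treated HSF-6 (S9) rests on 1 array at 276, and for HOXB1 243811_at all treated arrays lie above the untreated ones.

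The comparison of treated with untreated HSF-6 (8) asks what the 2 agents did in 1 subline. No HOX probe set passed the test: 0 of 44 were called at a limma adjusted p under 0.05 and at least 2-fold, where 48 of all 54613 probe sets were called higher (0.0879%) and 5 lower (0.00916%). The smallest adjusted p of a HOX probe set was 0.736. At an unadjusted p under 0.05, 1 of 44 was higher and 0 lower, against 4.06% and 2.23% of all probe sets. Differences were above 0 for 25 of 44 HOX probe sets, against 52.3% of all probe sets, with a median of 0.084 (range -0.84 to 0.61) beside 0.017 over all. The cluster medians were 0.075 for HOXB, 0.19 for HOXC and -0.014 for HOXD. The HOX median turned to -0.10 without array 3 of the treated group and to -0.14 without array 3 of every group, with 0 HOX calls (smallest limma adjusted p 0.402). Without array 3 of every group, calls over all probe sets dropped to 1 higher and 0 lower, so the absence of HOX calls in that fit says nothing about HOX genes in particular.

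Treated HSF-6 (S9) against treated HSF-6 (8) compares the sublines under the same agents. Here 0 of 44 HOX probe sets were called by limma, as were 0 of all 54613 (0%), and the smallest HOX adjusted p was 1.00. Unadjusted p was under 0.05 for 0 HOX probe sets in either direction, against 1.06% of all higher and 2.61% lower. The median HOX difference was -0.12 (range -0.83 to 0.75) beside -0.040 over all probe sets, and 14 of 44 were above 0, against 44.6% of all. HOXC had 1 of 9 above 0 and a median of -0.37, HOXB 7 of 19 with -0.045 and HOXD 5 of 15 with -0.088. Without array 3 of every group the HOX median was 0.014 with 0 HOX calls and 0 over all probe sets (smallest HOX limma adjusted p 0.953).

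Treated HSF-6 (S9) against untreated HSF-6 (8) shares its arrays with the other comparisons, so its values are no separate evidence. Again 0 of 44 were called by limma (smallest adjusted p 0.535), where 53 of all probe sets were called higher (0.097%) and 6 lower (0.011%). At an unadjusted p under 0.05, 1 HOX probe set was higher and 1 lower, against 4.28% and 4.25% of all. The median was -0.15 (range -1.08 to 0.93) beside -0.021 over all probe sets, and 16 of 44 were above 0, against 47.5% of all. HOXC had 1 of 9 above 0 and a median of -0.24, HOXB 9 of 19 with -0.17 and HOXD 5 of 15 with -0.060. Without array 3 of every group the HOX median was -0.067 with 0 HOX calls (smallest limma adjusted p 0.338), and over all probe sets 1 was called higher and 0 lower.

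**Figure D4:**
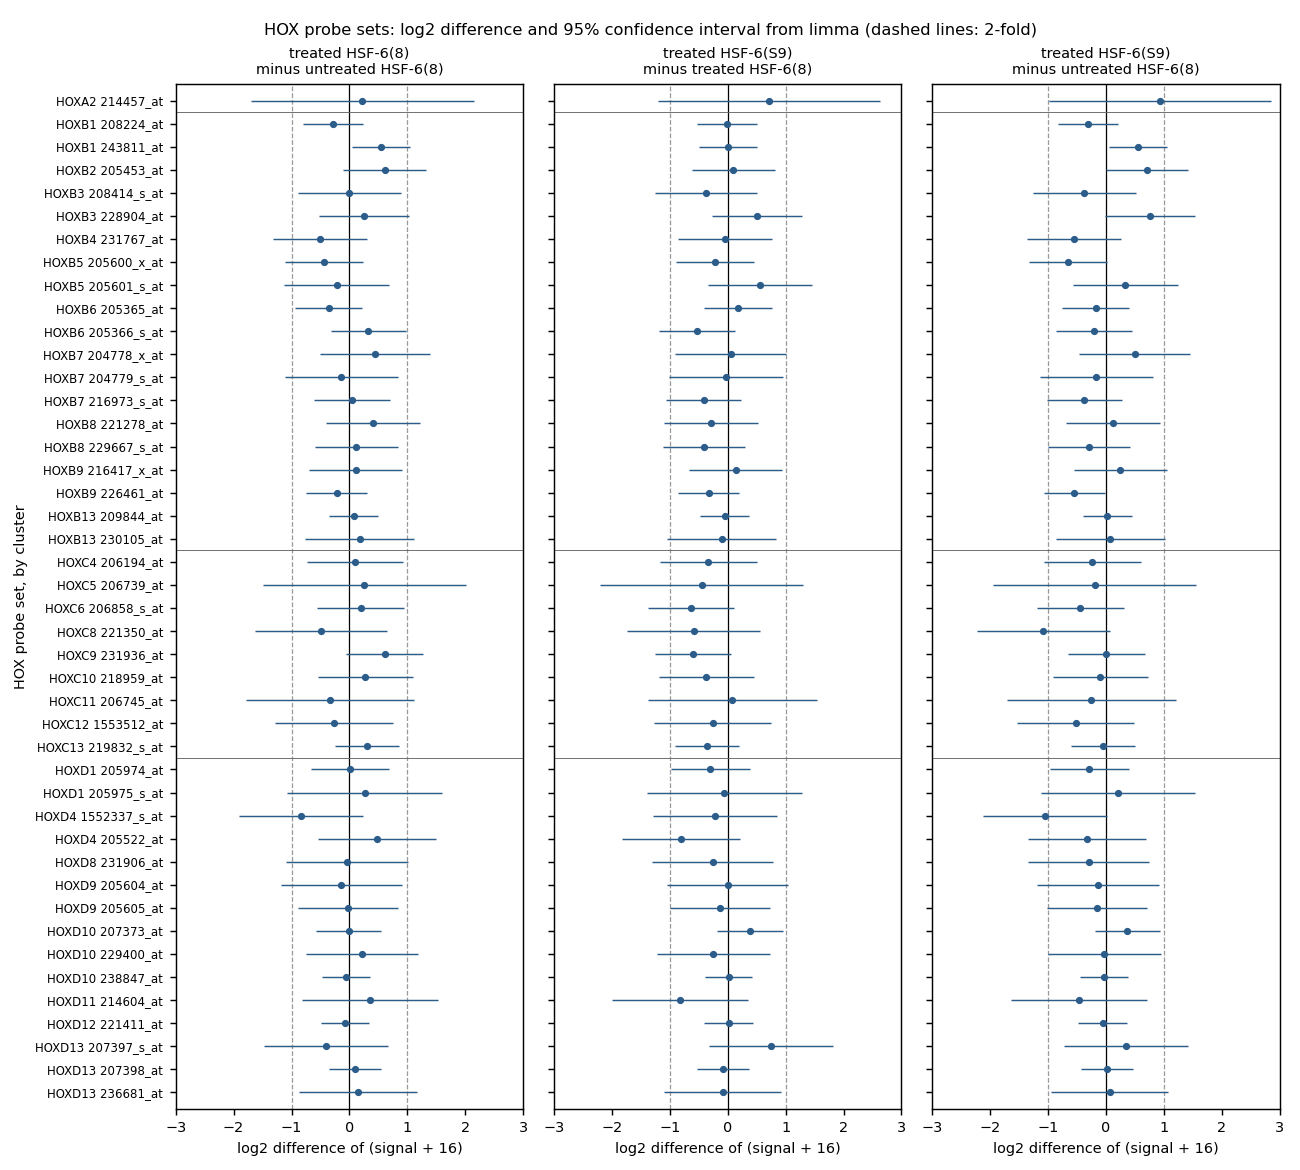
Log2 difference of each HOX probe set with its 95% interval in the 3 comparisons, by cluster. Points scatter on both sides of 0 with medians of 0.084, -0.12 and -0.15, and most intervals span 0.

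The spread between arrays limits what these comparisons can show. The standard error of a HOX difference had a median of 0.36 (range 0.18 to 0.86), against 0.32 over all probe sets. With 16 added before the log, a 2-fold change in a signal of a few units gives a log2 difference far under 1, so for the dimmest HOX probe sets the comparisons carry little information. An absence of calls is therefore no measure of an absence of change.

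A few single probe sets separated the groups without passing the test; they are outside the naming rule and were singled out after their values were seen. HOXB1, a hindbrain gene that responds early to retinoic acid, had probe set 243811_at at 28.5, 15.9 and 27.7 in untreated HSF-6 (8), 43.1, 38.0 and 44.1 in treated HSF-6 (8) and 33.9, 52.4 and 41.5 in treated HSF-6 (S9). Every treated array lay above every untreated one, and every value lay below its array's median. The differences from the untreated group were 0.54 ± 0.22 (limma adjusted p = 0.736) and 0.56 ± 0.22 (adjusted p = 0.535), both against the same 3 control arrays. The other HOXB1 probe set, 208224_at, read 25.4, 12.3 and 12.9, then 8.77, 12.1 and 10.7, then 7.30, 15.4 and 8.42, and its difference for treated HSF-6 (8) was -0.29 ± 0.23 (adjusted p = 0.984), with the groups not overlapping in the opposite direction.

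HOXB9 (226461_at), a gene of the thoracic region, read 113, 74.1 and 65.3 untreated, 68.5, 65.2 and 70.6 in treated HSF-6 (8) and 42.4, 48.6 and 63.3 in treated HSF-6 (S9). The HSF-6 (S9) arrays lay below all others, with a difference of -0.55 ± 0.24 from untreated HSF-6 (8) (limma adjusted p = 0.563). Its other probe set, 216417_x_at, had higher means in the treated groups: 48.1 ± 9.74 untreated, 54.7 ± 20.8 in treated HSF-6 (8) and 65.7 ± 41.7 in treated HSF-6 (S9) (SD, n = 3 each). Between treated and untreated HSF-6 (8), groups did not overlap for 1 HOX probe set upward and 1 downward, against 7.34% and 5.3% of all probe sets. Between the treated sublines it was 0 and 3, against 2.89% and 5.04%. Between treated HSF-6 (S9) and untreated HSF-6 (8) it was 2 and 3, against 6.84% and 7.21%. The HOX counts are near or below the background shares.

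Other HOX probe sets with large differences did not pass the test either. HOXD4 1552337_s_at differed by -0.84 ± 0.48 between treated and untreated HSF-6 (8) (limma adjusted p = 0.916), while its other probe set, 205522_at, differed by 0.48 ± 0.45. The latter read 4.88, 14.3 and 45.0 untreated and 45.9, 48.4 and 10.4 in treated HSF-6 (8). HOXC8 (221350_at) had the lowest value for treated HSF-6 (S9) against untreated HSF-6 (8), -1.08 ± 0.51 (limma adjusted p = 0.611). It read 60.7, 110 and 79.1 untreated and 18.4, 10.7 and 88.9 in treated HSF-6 (S9), whose array 3 lay within the untreated range. HOXC9 (231936_at) differed by 0.61 ± 0.29 with treatment of HSF-6 (8) and by -0.60 ± 0.29 between the treated sublines, comparisons that share the treated HSF-6 (8) arrays. For each difference in this paragraph the groups overlapped.

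Among the 13 HOX genes with at least 2 probe sets, all probe sets of a gene had the same sign for 5 genes between treated and untreated HSF-6 (8), for 4 between the treated sublines and for 5 between treated HSF-6 (S9) and untreated HSF-6 (8). The remaining 8, 9 and 8 genes had probe sets on both sides of 0, with HOXB1 and HOXB9 among them in every comparison. HOXB5 was among them in both comparisons that hold treated HSF-6 (S9), and HOXD4 only between treated and untreated HSF-6 (8).

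The factors that work with HOX proteins and those that control them were followed by lists, each gene by its brightest probe set. Shares of all probe sets given beside list counts also take in dim and unnamed probe sets, so they are not a like background. The TALE cofactors, PBX, MEIS and PKNOX proteins that bind DNA beside HOX proteins, had 8 of 9 genes measured and 0 called by limma in each comparison. Between treated and untreated HSF-6 (8) their median difference was 0.57 with 6 of 8 above 0, and 3 were higher and 1 lower at an unadjusted p under 0.05, against 4.06% and 2.23% of all probe sets. MEIS2 (207480_s_at) read 205, 301 and 228 untreated, 1377, 1007 and 705 in treated HSF-6 (8) and 1214, 838 and 3296 in treated HSF-6 (S9). All treated arrays lay above the untreated ones, with differences of 1.97 ± 0.47 (limma adjusted p = 0.312) and 2.56 ± 0.47 (adjusted p = 0.116). MEIS3 (228327_x_at) read 421, 366 and 223 untreated and 628, 823 and 948 in treated HSF-6 (S9), a difference of 1.23 ± 0.29 (adjusted p = 0.220). These cofactor values were large beside those of the HOX probe sets, but did not pass the test.

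**Figure D5:**
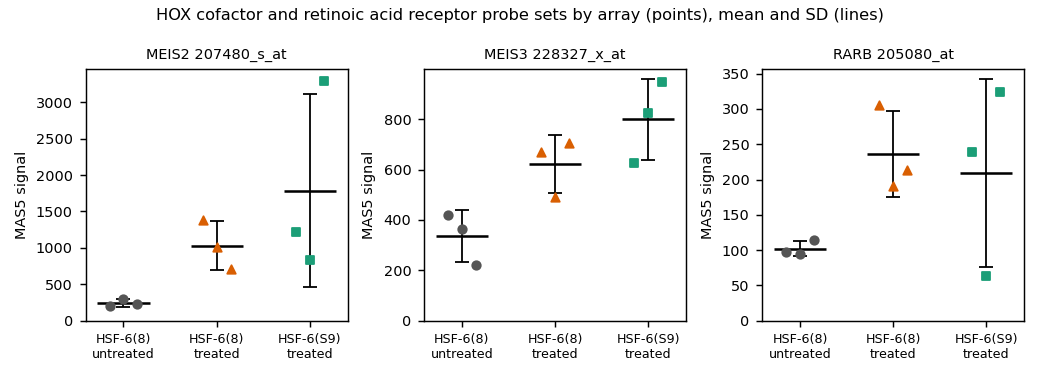
Signal on each array of MEIS2 and MEIS3, TALE cofactors of HOX proteins, and of RARB, a retinoic acid receptor, by group with mean and SD (n = 3). All treated arrays lie above the untreated ones for MEIS2 and MEIS3, and array 2 of treated HSF-6 (S9) lies below the untreated range for RARB.

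Of the retinoic acid pathway, 15 of 18 genes were measured and 0 were called by limma in each comparison, with medians of 0.21 for treated HSF-6 (8) and 0.20 for treated HSF-6 (S9) against untreated HSF-6 (8). RARB, a receptor gene that is itself induced by retinoic acid, read 97.3, 94.1 and 114 untreated, 305, 190 and 213 in treated HSF-6 (8) and 239, 63.9 and 325 in treated HSF-6 (S9). Its difference in HSF-6 (8) was 1.08 ± 0.47 (limma adjusted p = 0.783). ALDH1A3, a retinoic acid-synthesising enzyme, lay the other way: it read 433, 445 and 389 untreated, 306, 345 and 623 in treated HSF-6 (8) and 263, 315 and 141 in treated HSF-6 (S9). The HSF-6 (S9) arrays lay below the untreated ones, with a difference of -0.84 ± 0.34 (limma adjusted p = 0.540), and differed from treated HSF-6 (8) by -0.79 ± 0.34 (adjusted p = 1.00).

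Polycomb subunits (12 of 16 genes measured) and the opposing Trithorax and histone H3 lysine 27 demethylase genes (9 of 9) had 0 calls by limma in each comparison. Their medians were 0.039 and -0.063 for treated against untreated HSF-6 (8), and all of them were above the array median on every array. PHC2, a subunit of Polycomb repressive complex 1, read 721, 695 and 789 untreated and 1092, 1200 and 1607 in treated HSF-6 (S9), a difference of 0.79 ± 0.21 (limma adjusted p = 0.291). KDM6B, a demethylase of histone H3 lysine 27, read 449, 465 and 401 untreated and 611, 616 and 724 in treated HSF-6 (S9), a difference of 0.55 ± 0.19 (adjusted p = 0.442). In both genes the treated arrays lay above the untreated ones. JARID2 (203298_s_at), also of the Polycomb list, lay the other way between treated and untreated HSF-6 (8). It read 15021, 15622 and 12632 untreated and 11594.5, 11269 and 9088 in treated HSF-6 (8), without overlap. Its difference was -0.44 ± 0.24 (limma adjusted p = 0.893). In that comparison 8 Polycomb genes were above 0 and 4 below. Groups did not overlap for 7.34% of all probe sets upward and 5.3% downward.

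Noncoding RNAs of the HOX clusters (11 of 18 measured) and the ParaHox, EVX and CDX genes (7 of 8), the nearest relatives of the HOX genes, also had 0 calls by limma. Their medians were -0.052 and 0.11 for treated against untreated HSF-6 (8). HOXA-AS3 (239915_at), an antisense RNA of the HOXA cluster, read 8.66, 3.02 and 3.35 untreated, 8.09, 39.9 and 16.2 in treated HSF-6 (8) and 16.9, 46.5 and 27.3 in treated HSF-6 (S9). Its difference for treated HSF-6 (S9) against untreated HSF-6 (8) was 1.10 ± 0.35 (limma adjusted p = 0.388), in a probe set below the array median throughout. The list's median in that comparison was -0.28, with 7 of 11 below 0. HOXA11-AS (230666_at), another antisense RNA of that cluster, read 36.4, 41.0 and 42.1 in treated HSF-6 (8) and 3.55, 5.08 and 26.0 in treated HSF-6 (S9), which did not overlap, a difference of -1.11 ± 0.34 (limma adjusted p = 1.00). HOTTIP (1564069_at), of the same list, was brighter and lay above the array median on 8 of the 9 arrays. It read 137, 105 and 134 in treated HSF-6 (8) and 66.7, 90.1 and 83.9 in treated HSF-6 (S9), also without overlap. Its difference was -0.56 ± 0.29 and was not called.

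Of the developmental regulators that Polycomb binds in stem cells outside the HOX clusters, 41 of 42 genes were measured. The brightest probe set of 1 gene, GATA3, was called higher in each comparison with untreated HSF-6 (8). Of all probe sets, 0.0879% were called higher in treated HSF-6 (8) and 0.097% in treated HSF-6 (S9). Between treated and untreated HSF-6 (8) the median difference of the regulators was 0.62. In that comparison 30 were above 0 and 11 below, where 52.3% of all probe sets were above 0. At an unadjusted p under 0.05, 11 were higher and 0 lower, against 4.06% and 2.23% of all probe sets. Those shares take in dim and unnamed probe sets, whereas the list holds the brightest probe set of each gene, so they are not a like background. The HOX median by the brightest probe set of each of 28 genes was 0.15 in the same comparison, and the difference between the lists was not tested. GATA3, a regulator of trophoblast and other lineages, rose: probe set 209604_s_at read 179, 126 and 154 untreated, 661, 809 and 758 in treated HSF-6 (8) and 684, 631 and 977 in treated HSF-6 (S9). Its difference was 2.17 ± 0.24 in treated HSF-6 (8) (limma adjusted p = 0.012) and 2.19 ± 0.24 in treated HSF-6 (S9) (adjusted p = 0.013). The call in HSF-6 (8) held in 16 of 21 alternative fits and was lost without control arrays 2 or 3, without treated arrays 2 or 3, or without the third array of every group (adjusted p from 0.002 to 0.249 over the fits). The call in HSF-6 (S9) held in 15 of 21. The other GATA3 probe sets differed by 1.78 ± 0.32 (limma adjusted p = 0.132) and 1.36 ± 0.38 (adjusted p = 0.431) in HSF-6 (8), above 0 but not called.

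The labelled cell type was checked by its markers. All 9 measured pluripotency genes, of 10 listed, were above the array median on every array, and their summed signal ranged from 123280 to 165795 untreated, 117854 to 129135 in treated HSF-6 (8) and 113361 to 187296 in treated HSF-6 (S9). Fibroblast and stromal genes, many of whose cells express HOX genes, summed to 14047 to 14709, 16591 to 23969 and 15939 to 17673, with 9 to 12 of 14 above the array median and with PRRX1 and FAP below it on every array. Endoderm genes summed to 639 to 918, 1567 to 9823 and 1606 to 1999, mesoderm genes to 1137 to 1579, 1591 to 7741 and 1230 to 1771, and neuroectoderm genes to 9305 to 11021, 12341 to 15000 and 14560 to 16404. Array 3 of treated HSF-6 (8) held the highest endoderm, mesoderm and fibroblast sums. Without it the HOXC6 and HOXC4 differences between treated and untreated HSF-6 (8) changed sign. No marker gene was called by limma between treated and untreated HSF-6 (8). There the unadjusted p was under 0.05 and the value higher for 7 of 8 endoderm, 2 of 14 fibroblast and 2 of 8 neuroectoderm genes. The same held for 0 of 8 mesoderm and 0 of 9 pluripotency genes. The share was 4.06% of all probe sets, which take in dim and unnamed ones and so are not a like background. Some of the endoderm, mesoderm and neuroectoderm genes are also in the list of developmental regulators above, so the counts of these lists are not separate observations. The part of other cell types in the HOX values was not tested, and fewer cells of a type cannot be told apart from less RNA per cell.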

How the data were processed

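The submitters' processing notes name Affymetrix Expression Console and MAS5 without versions. The deposited values are MAS5 signal intensity on a linear scale; no further step by the authors is recorded in the sources used here, and depth has no meaning for arrays, whose number limits the precision. Gene names came from the platform annotation (44 of 44 HOX symbols matched RefSeq by Entrez number), and promoter sequences from RefSeq (GRCh38.p14). Of 54675 probe sets, 62 controls were left out. Linear models (R 4.3.3; limma 3.58.1; two-sided moderated tests) were fitted to log2(intensity + 16) of all 9 arrays without a filter or block, with Benjamini-Hochberg adjustment over 54613 probe sets; calls needed an adjusted p under 0.05 and 2-fold. The procedure was tested on simulated data. Members and lists were chosen with earlier results of these data known. Genes named were any called, the 3 brightest HOX probe sets per cluster, and the 4 largest rises and falls among HOX probe sets above the array median on all arrays of a group; from each other list, up to 4 called genes or the 2 with the largest difference, not all of which are printed. As a pairing check, arrays with the same mark had r of 0.149, 0.111 and 0.397 for HSF-6 (8) with against without the agents, and 0.139, 0.114 and 0.257 for the treated sublines. Untreated HSF-6 (8) against HSF-6 (S9) gave 0.052, 0.085 and 0.360. Across marks, arrays 1 and 2 gave 0.147 and 0.187 within HSF-6 (8), and 0.187 and 0.0998 for untreated HSF-6 (8) against HSF-6 (S9). In these pairs they correlated as much across marks as within them. For the treated sublines they gave 0.061 and 0.025 across marks, below the same-mark values. Array 3 stood out most, and the labels give no pairing. Alternatives changed the added value, filter, normalization, arrays, fit and probe set choice.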

Additional observations from a re-analysis of the deposited data

How the results depend on the processing

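No HOX probe set was called by limma in any comparison under any of the 23 alternatives to each fit; the smallest HOX adjusted p ranged from 0.402 to 0.961 for treated against untreated HSF-6 (8), from 0.858 to 1.00 between the treated sublines and from 0.316 to 0.631 for treated HSF-6 (S9) against untreated HSF-6 (8). With the replicate block (arrays paired by prime mark) 0 were called in each comparison, the smallest adjusted p being 0.613, 0.934 and 0.368, and the block changed no other HOX call. Over all probe sets, calls for treated against untreated HSF-6 (8) went from 48 higher and 5 lower to 80 and 8 with the filter on low values, 23 and 2 with 2 groups in the fit, and 1 and 0 without array 3 of every group.

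The HOX medians moved more. For treated against untreated HSF-6 (8), leaving out arrays gave -0.14 to 0.23, with -0.10 without array 3 of the treated group. Between the treated sublines it was -0.25 with 1 added before log2, -0.28 with the filter, -0.26 with the brightest probe set per gene and -0.26 to 0.014 with arrays left out. For treated HSF-6 (S9) against untreated HSF-6 (8) it was -0.26 with 1 added, -0.074 with 64 added, -0.22 with the filter and -0.21 to -0.067 with arrays left out. The lowest and highest values without 1 array or without array 3 of every group are given, and leaving out array 3 of HSF-6 (S9) gave -0.081 in both comparisons that hold it.

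Some named differences, none called, changed sign without certain arrays. For treated against untreated HSF-6 (8), HOXC6 ranged from -0.21 without array 3 of every group to 0.34, with -0.076 without array 3 of the treated group, and HOXC4 from -0.19 to 0.37, with -0.098. Between the treated sublines HOXB2 ranged from -0.35 to 0.39, with -0.23 without array 3 of HSF-6 (8) and -0.022 without that of HSF-6 (S9). For treated HSF-6 (S9) against untreated HSF-6 (8), HOXC4 ranged from -0.58 to 0.12, the latter without array 3 of HSF-6 (S9), with 0.023 without array 3 of every group. The cause was not tested. Signals near background, 3 arrays a group and unstated culture replication limit these values.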
